A study of Mus musculus with 4 samples.

Results

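Cholesterol synthesis in small intestinal organoids was followed through 7 genes of the pathway, Hmgcs1, Idi1, Fdps, Fdft1, Sqle, Lss and Cyp51. They were picked by symbol and stand on 8 of the 22632 rows of the expression table. A level above 0 was listed for 6 of the 7 genes. All 7 encode enzymes of synthesis. Receptors and carriers for cholesterol uptake were therefore followed as a separate list.

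RNA was sequenced from 4 organoid cultures, with 1 library per group, all harvested 24 hours after crypts of the small intestine were seeded. Yap-/- organoids came from Yapfl/fl;VillinCre mice, which lose both copies of Yap in the intestinal epithelium, where the Villin promoter drives Cre. Their controls, Yap+/- organoids, came from Yap+/fl;VillinCre mice and so carried the same Cre and had lost 1 copy themselves. In YapTg organoids doxycycline switches on a transgene of wild-type Yap through a Cre-driven rtTA, and these were grown with or without the drug. All 4 cultures grew in Matrigel with Egf, Noggin and Rsp1. The labels give no age, strain or number of animals per culture, and the Cre behind the rtTA is not named. No library had doxycycline without the transgene, so the drug and the transgene cannot be told apart. YAP, the product of Yap1, is a transcriptional co-activator that the Hippo pathway holds in check.

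Animal cells build cholesterol from acetyl-CoA through mevalonate, isoprenoid phosphates, squalene and lanosterol. The genes of this route are known to be controlled together by the transcription factor SREBP2, which the escort protein SCAP carries to the Golgi when sterols are scarce and which INSIG proteins hold back when sterols are plentiful. The intestinal epithelium both makes cholesterol and absorbs it from the gut lumen.

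Promoter windows of RefSeq (GRCm38.p6), from 250 bases before to 50 after the annotated start, were matched by symbol for 4 of the 7 genes: Hmgcs1, Idi1, Lss and Cyp51. No window was matched for Fdps, Fdft1 and Sqle. These windows are shown because the elements through which sterols act on the pathway are known to sit close to the start. The Hmgcs1 window is chr13:119690101-119690400 on the plus strand, the Idi1 window chr13:8885356-8885655 on the plus strand, the Lss window chr10:76531355-76531654 on the plus strand and the Cyp51 window chr5:4104648-4104947 on the minus strand. Each is written 5′ to 3′ along its gene, with capitals for matches to the sterol regulatory element (SRE) TCACNCCAC and to the CCAAT box, on either strand.
Hmgcs1: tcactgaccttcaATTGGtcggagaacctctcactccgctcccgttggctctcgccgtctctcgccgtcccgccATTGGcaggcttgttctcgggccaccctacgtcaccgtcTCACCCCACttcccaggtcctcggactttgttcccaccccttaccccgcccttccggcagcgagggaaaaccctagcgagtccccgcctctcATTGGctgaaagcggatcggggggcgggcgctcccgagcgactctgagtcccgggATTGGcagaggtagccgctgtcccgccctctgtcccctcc
Idi1: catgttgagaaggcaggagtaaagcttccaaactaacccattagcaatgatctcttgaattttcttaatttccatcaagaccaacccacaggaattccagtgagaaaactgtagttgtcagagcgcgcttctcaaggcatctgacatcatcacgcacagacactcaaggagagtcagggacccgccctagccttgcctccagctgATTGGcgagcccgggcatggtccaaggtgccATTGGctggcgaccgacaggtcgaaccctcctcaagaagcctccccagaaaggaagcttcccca
Lss: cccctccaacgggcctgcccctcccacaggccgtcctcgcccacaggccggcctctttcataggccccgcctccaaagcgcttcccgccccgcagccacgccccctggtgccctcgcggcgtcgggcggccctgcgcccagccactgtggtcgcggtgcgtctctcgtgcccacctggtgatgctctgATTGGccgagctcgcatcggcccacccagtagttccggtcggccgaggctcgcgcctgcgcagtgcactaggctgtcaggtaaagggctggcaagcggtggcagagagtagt
Cyp51: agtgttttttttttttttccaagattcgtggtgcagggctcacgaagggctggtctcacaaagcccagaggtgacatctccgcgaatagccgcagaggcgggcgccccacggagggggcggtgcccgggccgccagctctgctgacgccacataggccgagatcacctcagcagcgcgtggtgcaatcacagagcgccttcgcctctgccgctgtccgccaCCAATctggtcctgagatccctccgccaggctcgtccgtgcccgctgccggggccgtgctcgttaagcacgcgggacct

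The SRE letters were found in 1 of these 4 windows, that of Hmgcs1, from base -137 to base -129 before the start. They were found in 1.24% of 18173 promoter windows of genes in the table. A CCAAT box, the site of the factor NF-Y that works beside SREBP at sterol-responsive promoters, stood in all 4 windows, with 4 matches in Hmgcs1, 2 in Idi1 and 1 each in Lss and Cyp51; 38.1% of all windows held one. All 4 also held a GC box, GGGCGG on either strand, against 47.9% of all windows. Among 13 other synthesis genes, 12 had a window, of which 0 held the SRE letters, 11 a CCAAT box and 11 a GC box. A match is a description of the letters, and SREs that differ from this spelling were not searched.

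**Figure D1:**
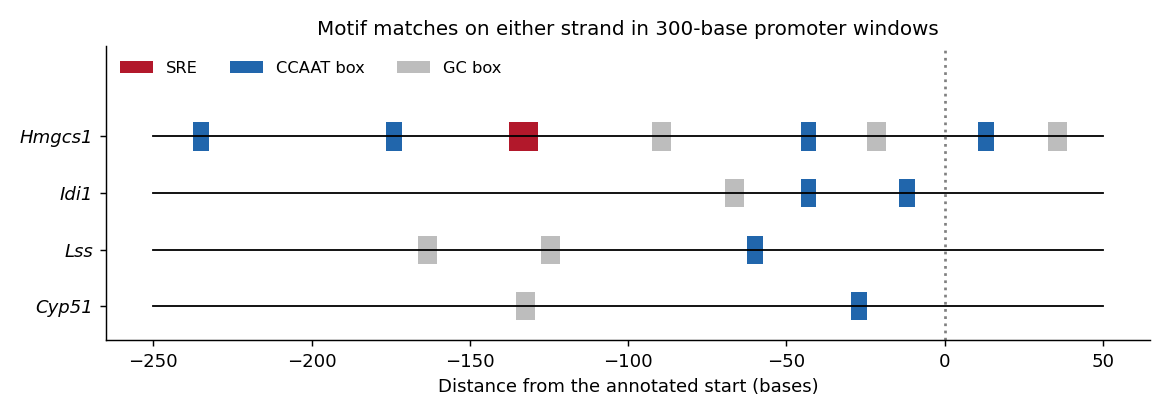
Matches to the SRE (red), the CCAAT box (blue) and the GC box (grey) on either strand in the promoter windows of 4 cholesterol synthesis genes, by distance in bases from the annotated start (dotted line). The SRE match stands in Hmgcs1 alone of the 4, while each window holds a CCAAT box and a GC box.

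Sequencing depth, recovered from the values, was 67716822 reads in the Yap-/- library and 56926423 in the Yap+/- library, and 75269003 reads in the induced and 44934170 in the uninduced YapTg library. Levels are in RPKM, reads per kilobase of gene model, scaled to the depth of the library. Yap1 was at 3.35 RPKM in Yap-/- against 16.7 RPKM in Yap+/- organoids, and at 1039 RPKM with against 25.1 RPKM without doxycycline. All 7 epithelial markers (Epcam, Cdh1, Krt8, Krt18, Krt19, Cdx2, Vil1) were present, with summed levels between 2329 and 6076 RPKM. Stromal markers summed to at most 3.46 RPKM, with Col3a1 and Dcn at 0, immune markers to at most 6.63 RPKM and red blood cell markers to at most 0.189 RPKM. With no replicate in any group there is no test and no p-value, and the 95% intervals below cover counting error only. Whether a difference exceeds the spread between cultures therefore cannot be judged from these libraries.

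On the RPKM scale Cyp51 was the most abundant of the 6 measured genes in every library and Idi1 the least abundant. RPKM divides by gene length, and the lengths the authors used are not given. The order between genes therefore depends on those lengths, while ratios of the same gene between libraries do not. Hmgcs1, which encodes the synthase that makes HMG-CoA, was listed at 0 in all 4 libraries on both of its rows, ENSMUSG00000079828 and ENSMUSG00000079301. Neither identifier is in GENCODE M21, and the identifier that holds the symbol there was not analysed here. A value of 0 on these rows therefore gives no level for Hmgcs1, and no fold was computed.

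Idi1 encodes the isomerase that interconverts the pair of 5-carbon isoprenoid units. It had 11.3 RPKM in Yap-/- organoids against 11.1 RPKM in Yap+/- organoids, and 9.57 RPKM in induced and 13.3 RPKM in uninduced YapTg organoids. The induced library was the lowest and the uninduced one the highest, 1.39-fold apart. Fdps makes farnesyl diphosphate, from which both sterols and protein prenyl groups branch. It had 40.9 RPKM in Yap-/- organoids against 46.1 RPKM in Yap+/- organoids, and 30.6 RPKM in induced and 41.4 RPKM in uninduced YapTg organoids. Induced organoids stood below the other 3 libraries, and the span of 1.51-fold was the widest of the 6 genes.

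Fdft1, squalene synthase, commits farnesyl diphosphate to sterols. It had 41.8 RPKM in Yap-/- organoids against 44.5 RPKM in Yap+/- organoids, and 39.0 RPKM in induced and 43.1 RPKM in uninduced YapTg organoids. The span of 1.14-fold was the narrowest. Sqle, squalene epoxidase, catalyses the first step of the sterol branch that uses oxygen and is known as a control point. It had 33.0 RPKM in Yap-/- organoids against 37.1 RPKM in Yap+/- organoids, and 39.7 RPKM in induced and 41.3 RPKM in uninduced YapTg organoids. Here the Yap-/- library was the lowest, and both YapTg libraries lay above the Yap-/- and the Yap+/- library.

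Lss closes squalene epoxide into lanosterol, the first sterol. Its levels were 14.6 RPKM in Yap-/- organoids against 18.0 RPKM in Yap+/- organoids, and 18.7 RPKM in induced and 21.1 RPKM in uninduced YapTg organoids. As for Sqle, the Yap-/- library was lowest and both YapTg libraries lay above the Yap-/- and the Yap+/- library. Cyp51 removes the 14-alpha methyl group of lanosterol. Its levels were 69.3 RPKM in Yap-/- organoids against 81.3 RPKM in Yap+/- organoids, and 58.6 RPKM in induced and 74.8 RPKM in uninduced YapTg organoids. Induced organoids were again the lowest, and both control libraries were above both Yap-/- and induced ones.

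Behind these levels stood between 1707 reads (Idi1, uninduced) and 20117 reads (Cyp51, Yap-/-) per gene and library. Several gene lengths can give whole reads for a gene, so these read numbers rest on the length nearest to GENCODE M21. In RPKM the order of levels was Cyp51, Fdft1, Fdps, Sqle, Lss, Idi1 in Yap-/- and in uninduced YapTg organoids. Fdps stood ahead of Fdft1 in Yap+/- organoids, and Sqle and Fdft1 stood ahead of Fdps in induced YapTg organoids. Fdps and Sqle, at 41.4 and 41.3 RPKM in uninduced organoids, were nearly equal on that scale. Summed over the 6 genes, the level was 211 RPKM in Yap-/- organoids against 238 RPKM in Yap+/- organoids, and 196 RPKM in induced and 235 RPKM in uninduced YapTg organoids. On the deposited scale both control libraries were nearly level, with the Yap-/- and the induced library below them.

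**Figure D2:**
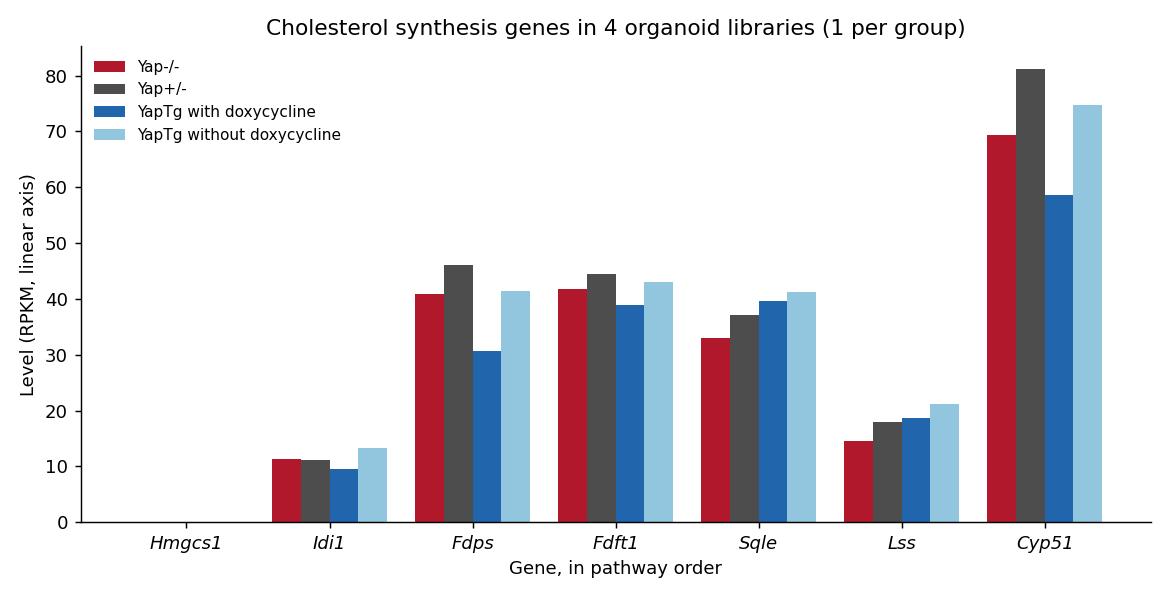
Levels in RPKM (linear axis from 0) of the 7 cholesterol synthesis genes, in pathway order, with 1 bar per library and no replicates. Cyp51 reaches 81.3 RPKM in Yap+/- organoids, Hmgcs1 is listed at 0 throughout, and the bar of induced YapTg organoids is the lowest for Idi1, Fdps, Fdft1 and Cyp51.

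Parts of some gene models are shared with other genes in GENCODE M21. The strand setting of the authors' counting is not given, so reads from such stretches cannot be told apart. Of the exon bases of Fdps, 26.7% overlap Gm43738 on the same strand. Of those of Fdft1, 18.3% overlap Ctsb on the other strand, a lysosomal protease gene at 94.7 RPKM in Yap-/- organoids against 90.6 RPKM in Yap+/- organoids, and at 58.3 RPKM in induced and 75.2 RPKM in uninduced YapTg organoids. Idi1 shares 9.22% with Gm48574, Cyp51 3.76% with Akap9 and Lss 3.53% with 4930483K19Rik, all on the other strand, and Sqle shares none. The part of these overlaps in the ratios below was not tested.

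The first pair of libraries compares Yap-/- and Yap+/- organoids, with Yap1 RNA still at 3.35 RPKM in the former against 16.7 RPKM in the latter. In Yap-/- organoids 5 of the 6 genes were slightly lower than in Yap+/- organoids, the sterol ring genes Lss and Cyp51 most. Lss was 1.23-fold lower (95% interval 1.18 to 1.28) and Cyp51 1.17-fold lower (1.14 to 1.21). Fdps was 1.13-fold lower (1.08 to 1.17), Sqle 1.12-fold lower (1.08 to 1.17) and Fdft1 1.07-fold lower (1.03 to 1.11). Idi1, at a ratio of 1.02, had an interval of 0.930 to 1.11 that includes 1. None of the 6 genes reached 1.5-fold, a size that 1.57% of 10710 genes at 1 RPKM or more reached downward and 1.34% upward. At 2-fold the shares were 0.57% and 0.336%, again with 0 of 6 genes.

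Counting intervals below 1 were thus found for 5 of 6 genes and above 1 for 0 of 6, against 12.6% of all genes below 1 and 31.8% above. Counted by any difference, 5 of 6 were lower and 1 higher, against 34.5% and 65.5% of all genes. The median log2 ratio of the 6 genes was -0.17, beside 0.05 over all 10710 genes. Log2 ratios are of RPKM plus 1. By single gene, 4.87% of all genes had a lower log2 ratio than Lss, 6.23% than Cyp51, 8.90% than Fdps, 9.10% than Sqle, 15.8% than Fdft1 and 41.4% than Idi1. The differences were small, and the direction was shared by all but Idi1, whose log2 ratio of 0.02 became -0.11 when each library was rescaled to the same sum and was also below 0 under the other 2 scalings.

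The second pair compares YapTg organoids with and without induction. With doxycycline all 6 genes were lower than without it on the deposited scale, the isoprenoid genes most and Sqle so little that another scaling turned its sign. Idi1 was 1.39-fold lower (95% interval 1.26 to 1.52) and Fdps 1.35-fold lower (1.29 to 1.41). Cyp51 was 1.28-fold lower (1.24 to 1.32), Lss 1.13-fold lower (1.09 to 1.17) and Fdft1 1.11-fold lower (1.06 to 1.15). Sqle was 1.04-fold lower (1.01 to 1.08), and its log2 ratio of -0.06 turned to 0.063 when each library was rescaled to the same sum. None reached 1.5-fold, against 13% of 11108 genes downward and 11.4% upward, and at 2-fold 5.8% and 5.85%.

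Here the background was wide. Counting intervals below 1 were found for 6 of 6 genes, against 42% of all genes below 1 and 34.1% above. By any difference 54.5% of all genes were lower and 45.5% higher. The median log2 ratio of the 6 genes was -0.26, beside -0.04 over all genes. The share of genes with a lower log2 ratio was 19.0% for Idi1, 19.3% for Fdps, 23.7% for Cyp51, 37.9% for Lss, 40.4% for Fdft1 and 49.0% for Sqle. Idi1, Fdps and Cyp51 lay below the lower quartile of all genes, at -0.33, and Lss, Fdft1 and Sqle above it. In these bulk libraries, fewer cells of a type and less RNA per cell cannot be told apart.

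Relative to the median of all genes, the 6 genes stood at -0.21 on the log2 scale in Yap-/- against Yap+/- organoids and at -0.21 in induced against uninduced YapTg organoids. These 2 pairs share no library, but their backgrounds differ in width. The median absolute log2 ratio over all genes was 0.09 with loss and 0.29 with induction. In size the offset was above the former and below the latter. Single genes ranked otherwise in each pair. Lss had the lowest log2 ratio with loss of Yap (-0.28, against -0.17 with induction), and Idi1 the lowest with induction (-0.43, against 0.02 with loss).

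The controls, Yap+/- and uninduced YapTg organoids, give a yardstick for libraries with neither the Yap-/- genotype nor induction. Both libraries also serve in the comparisons above. Of the 6 genes, Fdps and Cyp51 were higher in Yap+/- than in uninduced YapTg organoids, at ratios of 1.11 (95% interval 1.07 to 1.16) and 1.09 (1.05 to 1.12). Idi1, Lss and Sqle were lower, at ratios of 0.836 (0.760 to 0.919), 0.850 (0.818 to 0.883) and 0.898 (0.865 to 0.933). Fdft1, at 1.03, had an interval of 0.992 to 1.08. Intervals above 1 were found for 2 of 6 genes, against 20.3% of 10883 genes, and below 1 for 3 of 6, against 47.3%. By any difference 3 were higher and 3 lower, against 34.4% and 65.6%. None reached 1.5-fold (3.39% of all genes higher, 4.7% lower) or 2-fold (1.11% and 0.726%). The widest gap between these control libraries was that of Idi1, at a log2 ratio of -0.24, and the widest with loss of Yap that of Lss, at -0.28. The median of the 6 genes was -0.05 beside -0.11 over all genes, and its sign turned under 2 other scalings.

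**Figure D3:**
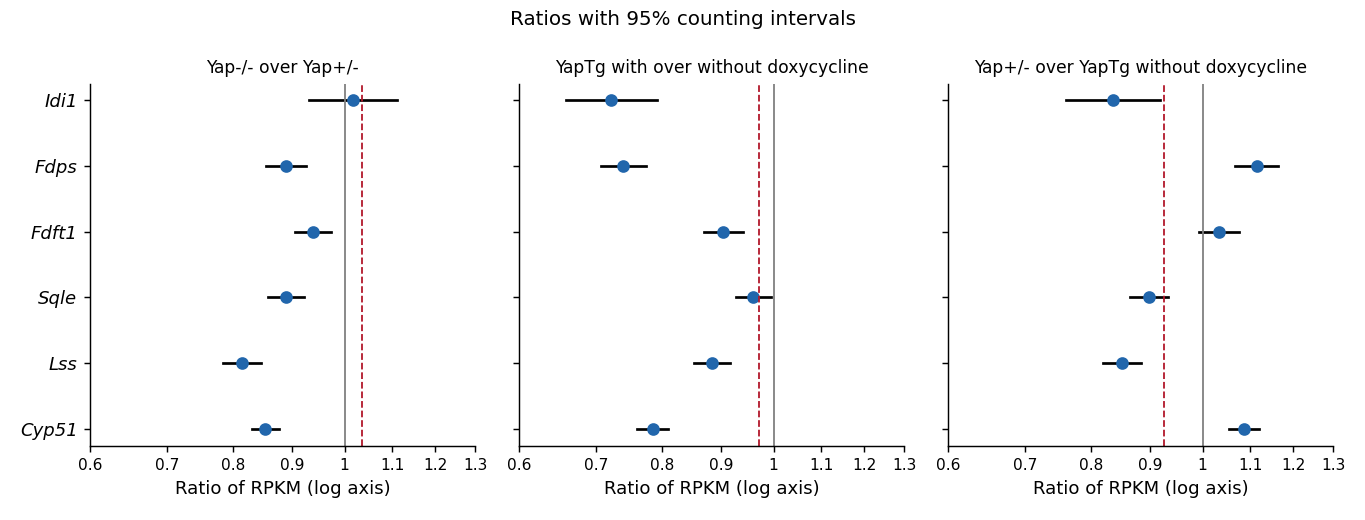
Ratio of RPKM (log axis) for each of the 6 measured genes in 3 pairs of libraries, with dots for the ratio and bars for the 95% counting interval; the grey line marks 1 and the dashed red line the median of all genes at 1 RPKM or more. The dots lie left of 1 for 5 genes with loss of Yap and for 6 with induction (Sqle, the nearest to 1, not under every scaling), and on both sides of it between the control libraries.

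The set of 13 other synthesis genes covers further steps of the route. Their median log2 ratio was -0.05 with loss of Yap, and 0 of 13 reached 1.5-fold in either direction. Intervals lay below 1 for 6 and above 1 for 4, against 12.6% and 31.8% of all genes. Msmo1 (listed as Sc4mol) encodes an oxidase that acts later in the route than Cyp51. It was at 33.2 RPKM in Yap-/- organoids, against 39.2 RPKM in Yap+/- organoids, which is 1.18-fold lower. Dhcr7, which makes cholesterol from 7-dehydrocholesterol, went the other way at 38.1 and 32.2 RPKM in the same order, 1.18-fold higher.

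With induction the median of the 13 was -0.32, intervals lay below 1 for 12 and above 1 for 1, and 2 of 13 were at least 1.5-fold lower. Over all genes the shares were 42% below 1, 34.1% above 1 and 13% lower by 1.5-fold, so the count at 1.5-fold is close to the background. Those 2 were Tm7sf2, a sterol reductase, and Dhcr7. Tm7sf2 had 7.56 RPKM in induced and 17.0 RPKM in uninduced organoids, 2.25-fold lower (2.07 to 2.44), past the 2-fold that 5.8% of all genes reached downward. Dhcr7 had 20.5 RPKM in induced and 37.1 RPKM in uninduced organoids, 1.81-fold lower (1.75 to 1.88). The gene above 1 was Hsd17b7, a sterol ketone reductase, at 14.1 RPKM in induced and 12.3 RPKM in uninduced organoids.

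**Figure D4:**
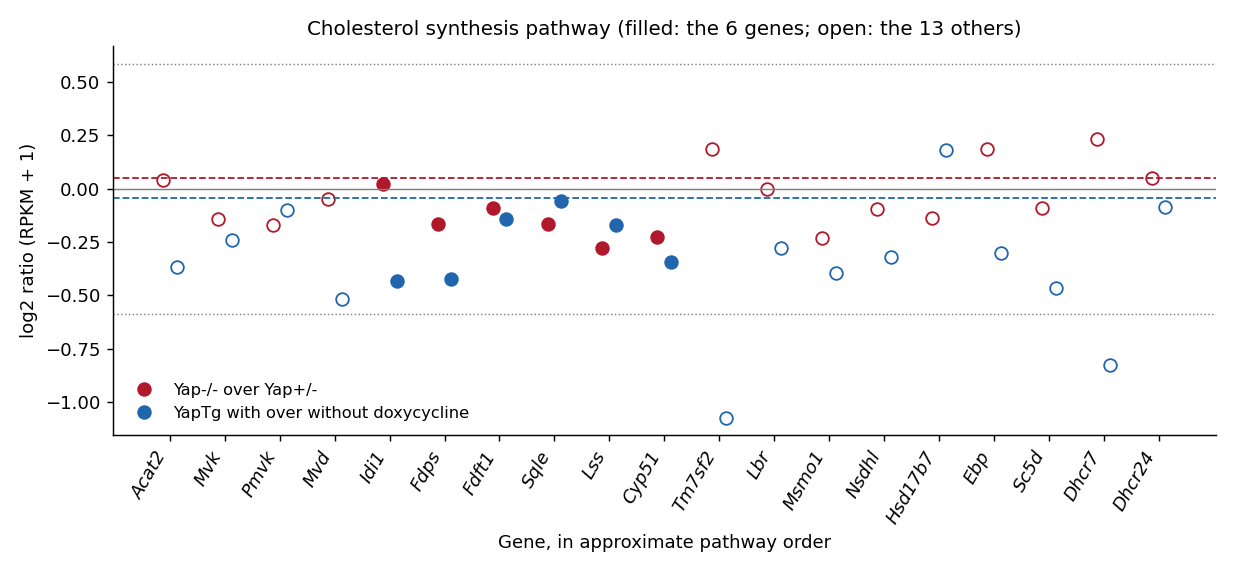
Log2 ratio of RPKM plus 1 for 19 cholesterol synthesis genes in approximate pathway order, in Yap-/- over Yap+/- (red) and YapTg with over without doxycycline (blue); filled points are the 6 genes described in full and open points the 13 others, dashed lines the medians of all genes and dotted lines 1.5-fold. Only Tm7sf2 and Dhcr7, both with induction, lie past a dotted line.

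Genes that sense sterols or carry SREBP showed 1 wide gap. Srebf2, the gene of SREBP2, had 44.5 RPKM in Yap-/- organoids against 46.8 RPKM in Yap+/- organoids, and 54.5 RPKM in induced and 49.7 RPKM in uninduced YapTg organoids. The log2 ratios were -0.07 and 0.13. Srebf1, whose product favours fatty acid synthesis, had 36.5 RPKM in Yap-/- organoids against 35.7 RPKM in Yap+/- organoids. It had 25.2 RPKM in induced and 34.9 RPKM in uninduced YapTg organoids, 1.39-fold lower (1.33 to 1.44). Insig1, which retains SREBP in the endoplasmic reticulum and is itself an SREBP target, reached 134 RPKM in Yap-/- organoids, against 145 RPKM in Yap+/- organoids. It was at 42.4 RPKM in induced and 105 RPKM in uninduced YapTg organoids, 2.48-fold lower (2.38 to 2.58). Among all genes 3.59% had a lower log2 ratio with induction, and Insig1 stood below all 6 enzymes.

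Insig2, which shares the role of Insig1, and Mbtps1, a protease that releases SREBP, were the furthest from 0 with loss of Yap. Insig2 had 9.26 RPKM in Yap-/- organoids, against 11.5 RPKM in Yap+/- organoids (1.24-fold lower), and Mbtps1 was 1.11-fold higher in Yap-/- organoids. The median over the 7 control genes was -0.00 with loss and -0.15 with induction.

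Uptake and trafficking were followed through 10 genes. Npc1l1, the intestinal cholesterol importer of the brush border, had 65.4 RPKM in Yap-/- organoids against 55.8 RPKM in Yap+/- organoids. It had 37.0 RPKM in induced and 65.9 RPKM in uninduced YapTg organoids, 1.78-fold lower (1.72 to 1.84). Npc1, which exports cholesterol from lysosomes, was at 3.77 RPKM in induced and 1.93 RPKM in uninduced organoids, 1.96-fold higher (1.76 to 2.18).

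Of these 10 genes 1, Npc1, was at least 1.5-fold higher with induction and 2 were lower, Npc1l1 and Npc2, another lysosomal cholesterol carrier, which was named after its values were seen. These counts are close to the shares over all genes, 11.4% higher and 13% lower. Npc2 had 18.6 RPKM in induced and 30.8 RPKM in uninduced organoids. The list median was -0.32 with induction and 0.05 with loss of Yap. With loss of Yap Scarb1, a lipoprotein and lipid receptor, alone of the 10 passed 1.5-fold on the scale of RPKM plus 1, at 32.2 RPKM in Yap-/- organoids, against 11.3 RPKM in Yap+/- organoids. It was lower still in YapTg organoids, at 3.94 RPKM induced and 4.83 RPKM uninduced. The ratio between the control libraries, 2.34 (2.14 to 2.55), stands beside that with loss, 2.85 (2.71 to 3.00). Vldlr, the other gene furthest from 0 with loss, was low, at 0.730 RPKM in Yap-/- organoids, against 1.17 RPKM in Yap+/- organoids. On RPKM alone Vldlr was 1.61-fold lower (1.36 to 1.90).

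Sterol efflux and LXR genes, several of which sterol excess is known to switch on, had the lowest median of the pathway lists with induction, at -1.01 over 6 genes at 1 RPKM or more, 4 of them at least 2-fold lower (5.8% of all genes). Abcg8 and Abcg5, subunits of the pump that returns sterols to the gut lumen, were 3.10-fold lower (2.89 to 3.31) and 2.20-fold lower (2.08 to 2.33). Nr1h3, the gene of LXR-alpha, was at 5.41 RPKM in induced and 11.9 RPKM in uninduced organoids. Abca1, the exporter to HDL, was at 0.340 RPKM in induced and 1.70 RPKM in uninduced organoids, 5.01-fold lower (4.10 to 6.14). The same 6 genes had a median of 0.23 with loss of Yap, beside 0.05 over all genes. All 6 were higher, as were 65.5% of all genes, and 0 passed 1.5-fold, which 1.34% of all genes reached upward. Nr1h3 and Abca1 were then furthest from 0, at ratios of 1.37 (1.27 to 1.49) and 1.53 (1.35 to 1.74); on the scale of RPKM plus 1 Abca1 does not reach 1.5-fold.

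Markers of absorptive cells, which express Abcg5, Abcg8 and Npc1l1, also differed with induction. The 8 enterocyte markers summed to 1598 RPKM in induced and 4558 RPKM in uninduced YapTg organoids, of which Fabp1 made up 106 and 1938 RPKM. Of the 8 markers, 5 were at least 1.5-fold lower, against 13% of all genes, and Krt20 was higher. Alpi, at 349 RPKM in induced and 370 RPKM in uninduced organoids, and Apoa1, at 449 and 471 RPKM, were nearly level. With loss of Yap the markers were split, with 4 of 8 higher and 4 lower (Apoa1, Alpi, Krt20 and Anpep), against 65.5% and 34.5% of all genes. Their median log2 ratio was 0.06, beside 0.05 over all genes. Their sum was 10340 RPKM in Yap-/- organoids against 7435 RPKM in Yap+/- organoids, of which Fabp1 made up 5766 and 3457 RPKM. Goblet cell markers summed to 360 RPKM in induced and 1442 RPKM in uninduced organoids, and stem cell markers to 53.6 and 521 RPKM in the same order. In the other pair goblet cell markers summed to 1787 RPKM in Yap-/- organoids against 1407 RPKM in Yap+/- organoids, stem cell markers to 579 and 308 RPKM, and Paneth cell markers to 4710 and 2386 RPKM. Paneth cell markers summed to 3325 RPKM in induced and 5476 RPKM in uninduced organoids. The control libraries differed in these markers too. In Yap+/- over uninduced YapTg organoids the median log2 ratio was -0.74 for stem cell, -0.91 for Paneth cell and -0.44 for goblet cell markers. It was 0.60 for enterocyte markers, beside -0.11 over all genes. The part of cell composition in the values of the 6 enzymes was not tested.

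Genes of cholesterol esters and oxysterols were lower with induction in 3 of 3 measured cases, against 54.5% of all genes. Of these, 2 were at least 1.5-fold lower (13% of all genes). Soat1, an acyltransferase that stores cholesterol as ester, was 1.69-fold lower (1.61 to 1.78), and Cyp27a1, a sterol hydroxylase, was at 1.26 RPKM in induced and 2.78 RPKM in uninduced organoids. Soat2 and Soat1 were 1.19-fold and 1.18-fold higher with loss of Yap. Ch25h and Cyp7b1 were listed at 0 in all 4 libraries.

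Of 10 genes of fatty acid synthesis, the other arm of SREBP control, 5 were at least 1.5-fold lower with induction (13% of all genes). The list median was -0.53. Scd1 and Fads2, desaturases of saturated and polyunsaturated fatty acids, were furthest. Scd1 was at 47.0 RPKM in induced and 116 RPKM in uninduced organoids, 2.47-fold lower (2.40 to 2.54), and Fads2 1.91-fold lower (1.85 to 1.96). The other 3 were Fads1, Scd2 and Acss2, of which Fads1 and Acss2 were named after their values were seen. Fasn, the fatty acid synthase gene, was nearly level, at 47.3 RPKM in induced and 48.3 RPKM in uninduced organoids. Me1 was higher, at 13.1 RPKM in induced and 12.2 RPKM in uninduced organoids. By any difference 9 of 10 were lower and 1 higher, against 54.5% and 45.5% of all genes. With loss of Yap the median was 0.01 and 0 of 10 reached 1.5-fold; Scd2 and Scd1 were furthest, 1.18-fold and 1.14-fold lower. Genes that use isoprenoids had medians of 0.03 with loss and 0.04 with induction. Pdss1, which builds the ubiquinone tail, stood apart from them with induction at 6.28 RPKM in induced and 16.6 RPKM in uninduced organoids, 2.65-fold lower (2.44 to 2.87), and Pdss2, its partner subunit, had 2.78 RPKM in induced and 3.89 RPKM in uninduced organoids. With loss of Yap Coq2 and Pdss2, also of ubiquinone synthesis, were furthest from 0, at log2 ratios of 0.13 and 0.11.

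**Figure D5:**
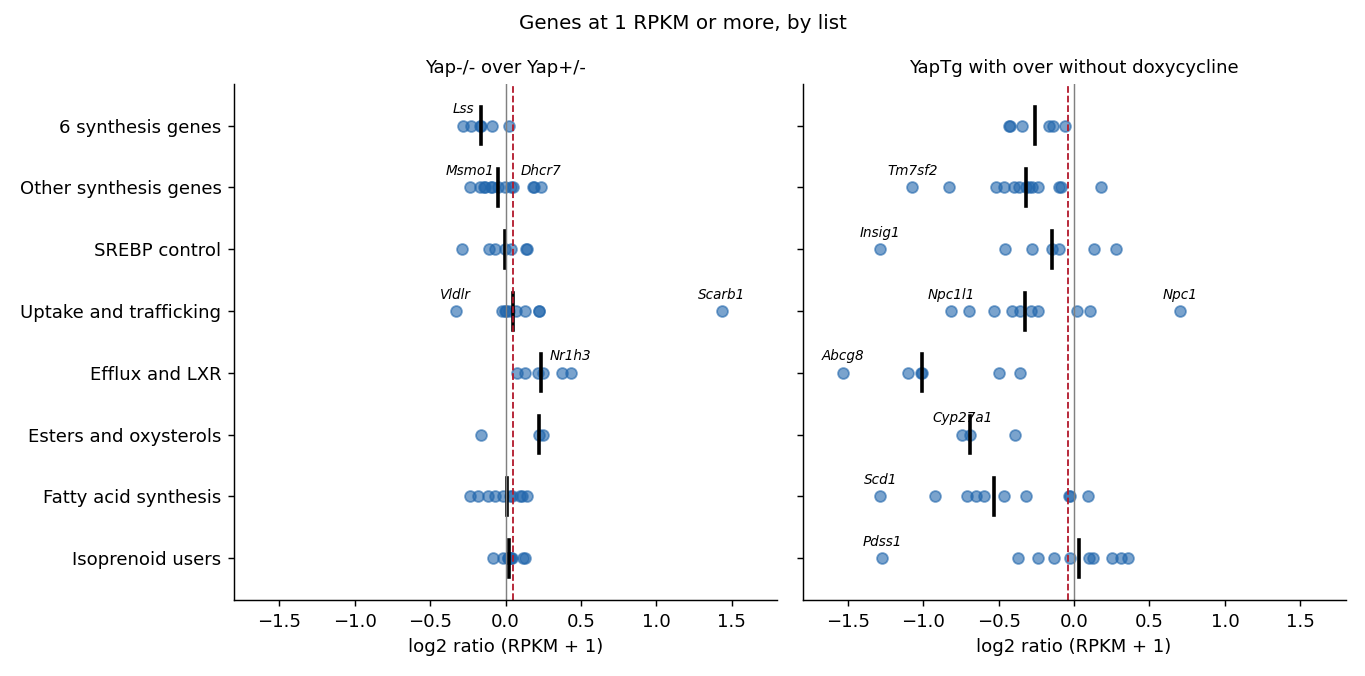
Log2 ratios of RPKM plus 1 by gene list for Yap-/- over Yap+/- (left) and YapTg with over without doxycycline (right), with 1 dot per gene at 1 RPKM or more, a black bar for the list median and a dashed red line for the median of all genes. With induction Npc1 lies at 0.70 while Insig1 lies at -1.29 and the efflux list has its median at -1.01.

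Between the control libraries the 13 other synthesis genes had a median of 0.07, with Lbr, a sterol reductase, and Sc5d, a sterol desaturase, furthest from 0, at log2 ratios of -0.44 and 0.39. Insig1 and Insig2 had ratios of 1.38 and 1.45. Proliferation genes were lower in Yap+/- than in uninduced YapTg organoids, with a median log2 ratio of -0.55 over 8 genes, beside -0.11 over all genes. All 8 were lower, against 65.6% of all genes.

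The genes most like the 6 in profile over the 4 libraries were sought among 5736 others at 5 RPKM or more in every library, by Euclidean distance of centred log2 values. The nearest were Psmg2 (distance 0.023), a proteasome assembly chaperone gene, Ppil1 (0.027) and Snrpg (0.029), both genes of splicing factors, Ppme1 (0.036), a phosphatase methylesterase gene, and Map2k5 (0.065), a kinase gene. Of the other synthesis genes Mvk came nearest, at rank 110 (0.139), and Tm7sf2 was the furthest, at rank 5070 (0.926). The 6 genes themselves lay between 0.116 (Fdft1) and 0.306 (Lss) from their own mean, which they define. That mean profile is nearly flat, from -0.13 in induced to 0.13 in uninduced YapTg organoids on the centred log2 scale.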

How the data were processed

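The 4 libraries are of whole organoid cultures, 1 per group, grouped by genotype and title. Libraries were made with an Illumina TruSeq RNA kit, per the labels' protocols. The submitters' processing notes name CASAVA 1.8, FastQC, TopHat 1.4.1 and mm9; which program counted reads, on which annotation and with which strand setting and filters, is not given in the sources used here. Values in the deposited table are RPKM, identified from the values because no header names the unit, and 0 columns were left unused.

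RPKM was used as deposited. The depth of each library was found by assuming whole reads at GENCODE M21 gene lengths, and came out whole within 0.00022. A whole length was then sought that makes a gene's reads whole within 0.01 in all 4 libraries. All 11285 genes at 1 RPKM had one, and only 13 of them had a single one. The length nearest to GENCODE M21 was taken, and it equalled that of GENCODE M21 for 4324 genes. More genes had 2 reads than 1 (297 against 94 in Yap+/-), as mates counted apart would give. Reads were therefore divided by 2 before the 95% interval of each fold was taken (exact binomial, Clopper-Pearson, given the sum of both libraries). It covers counting error only, and its width depends on the length taken. Log2 ratios are of RPKM plus a pseudocount of 1, which understates low genes; a gene counted when the higher library reached 1 RPKM. No test was possible with 1 library per group. Solver, interval and motif scripts were tested on simulated data (Python 3.11.15, scipy 1.17.1). The interval was tested there on the simulated reads themselves, not on reads recovered through a chosen length.

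The genes and lists were chosen with earlier results of these data known. Some genes of the planned lists are not reported here and were left out of the counts and medians of their lists. Named genes are the 6 measured ones, Hmgcs1, Srebf2, Srebf1, Insig1, any other synthesis gene, the 2 furthest from 0 of each list per comparison, and for likeness the 5 nearest without predicted genes. Of the marker lists, enteroendocrine and tuft cell genes had median log2 ratios of 0.20 and 0.32 with loss of Yap and -1.07 and 0.12 with induction, and proliferation genes 0.12 and -0.26.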

Additional observations from a re-analysis of the deposited data

How the results depend on the processing

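No paired analysis was possible because each group has 1 library. Rescaling each library to the same sum moved the median log2 ratio of the 6 genes to -0.30 with loss of Yap and to -0.14 with induction, and moved the median of all genes by a like amount, to -0.07 and 0.07. Relative to all genes the 6 stood between -0.23 and -0.18 with loss and at -0.21 with induction under all 5 alternatives (pseudocounts of 0.1 and 5, and 3 scalings). Between the control libraries the median of the 6 turned to 0.083 under median-ratio and to 0.053 under upper-quartile scaling. Of 90 values of single genes under these alternatives, 65 stayed within the counting interval and 24 left it without turning the sign of a gene whose interval excludes 1. The other 1, Sqle with induction, turned to 0.063 under the rescaling to the same sum. Idi1 with loss of Yap, whose interval includes 1, also changed sign, to -0.021 under median-ratio scaling, -0.017 under upper-quartile scaling and -0.11 under rescaling to the same sum. The counts of other synthesis genes past 1.5-fold and of promoters with a motif stayed within 1.5 times under the alternatives listed for them (no floor or a floor of 5 RPKM, both pseudocounts, median-ratio and upper-quartile scaling, and only the 250 bases before the start). Of the uptake genes, 0 were higher by 1.5-fold with induction at a floor of 5 RPKM or a pseudocount of 5, and of the 2 lower ester genes 1 at a floor of 5 RPKM and 0 at a pseudocount of 5. With loss of Yap, 1 uptake gene was lower by 1.5-fold at a pseudocount of 0.1. Each of the 6 genes had 1707 or more reads in each library, while some list genes had far fewer, such as Cyp27a1 with 173 in Yap-/- organoids. No group has a replicate.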
